A study of Mus musculus with 6 samples.

Results

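Complex I, the NADH-ubiquinone oxidoreductase of the respiratory chain, was followed through every measured gene whose symbol begins with Nduf, 46 of 19505 genes, in the heart of sham and CKD mice. By textbook function, 6 of the 46 encode core subunits, 29 encode accessory subunits and 8, Ndufaf1 to Ndufaf8, encode assembly factors. The remaining 3 bear the name outside these classes. Ndufa4 is now placed in complex IV, Ndufa4l2 is its paralog, and Ndufb4b is a copy on chromosome 19 named after Ndufb4 of chromosome 16. Probes may not separate Ndufb4b from Ndufb4, which was not tested. The accessory subunit Ndufb1 was not analysed here, nor was any of the 7 core subunits encoded by mitochondrial DNA.

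Total RNA (250 ng) of each heart was hybridised to 1 Affymetrix Clariom S array. Hearts came from 3 sham and 3 CKD mice of the Balb/c strain, which the methods describe as male and 8 weeks old at surgery. In CKD mice part of the cortex of the right kidney was electrocoagulated and the left kidney was removed later, the 5/6 nephrectomy model, whereas in sham mice the abdomen was opened and the kidneys were left alone. The methods list more than 1 cohort of Balb/c mice and neither they nor the labels name the one hybridised, the time after surgery or the chamber of the heart sampled. Values are log2 levels from robust multiarray averaging, and a gene is called lower or higher in CKD at a fold change over 1.5 (0.58 on the log2 scale) with an unadjusted p under 0.05 from limma.

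Complex I takes electrons from NADH, passes them along a flavin and a chain of iron-sulphur clusters to ubiquinone, and pumps protons across the inner mitochondrial membrane. Its N module binds NADH, its Q module reduces ubiquinone, and the proximal and distal parts of its membrane arm carry the proton channels. Core subunits hold the cofactors and channels and are conserved from bacteria, accessory subunits surround and stabilise them, and assembly factors join the modules and are absent from the finished enzyme. The heart, which burns mainly fatty acids, is among the tissues richest in this enzyme.

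Most Nduf genes did not pass the criterion. In CKD hearts, 2 of 46 were lower, the accessory subunits Ndufa7 and Ndufa3, none was higher and 44 had no call. The 2 are 4.35% of the Nduf genes, beside 3.19% of all genes lower in CKD, and the count of 0 higher stands beside 3.13% of all genes. With p adjusted by Benjamini-Hochberg over all genes, 0 Nduf genes and 2 of all genes were under 0.05 in limma. Without the fold limit, 4 Nduf genes (8.7%) had an unadjusted p under 0.05, beside 9.14% of all genes, namely Ndufa7, Ndufa3 and Ndufb5 with negative and Ndufv2 with a positive difference. These shares lie near or below those of all genes, so the counts do not set the Nduf genes apart.

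**Figure D1:**
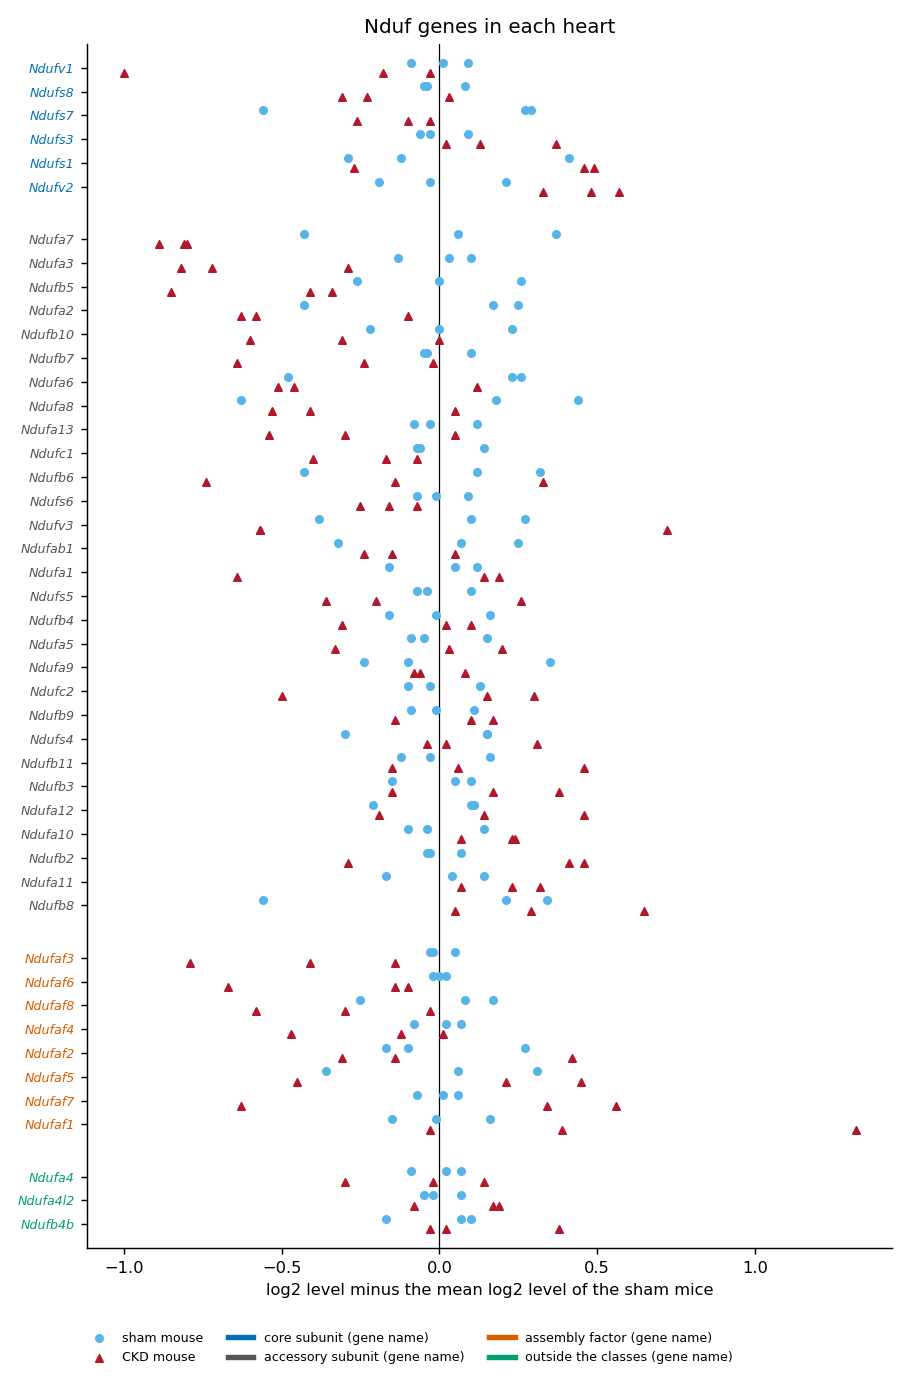
Log2 level of each Nduf gene in each heart minus the mean of the 3 sham hearts (x axis), with genes grouped by class (y axis), sham mice as circles and CKD mice as triangles. The 3 CKD hearts lie left of every sham heart for Ndufa7, Ndufa3, Ndufb5, Ndufaf3 and Ndufaf6, and right of them for Ndufv2.

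The differences were small in all 3 classes. The median log2 fold change, CKD minus sham, was −0.08 over the Nduf genes and −0.00 over all genes. It was 0.02 for the core subunits, −0.11 for the accessory subunits and −0.10 for the assembly factors. The SD of a class median between replicate arrays was 0.15, 0.08 and 0.20, respectively. Of the 46 genes, 29 had a negative and 17 a positive value, 30 were within 0.25 of 0 on the log2 scale, and the whole range ran from −0.83 to 0.56. The negative share of 63% stood beside 61.4% of the subunits of complexes II to IV and ATP synthase and 50.7% of all genes. By place in the enzyme, the median was −0.15 in the N module (10 genes), −0.04 in the Q module (5), −0.11 in the proximal (9) and −0.01 in the distal membrane arm (10). The N module held both Ndufa7, the lowest value of all, and Ndufv2, the highest among subunits.

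**Figure D2:**
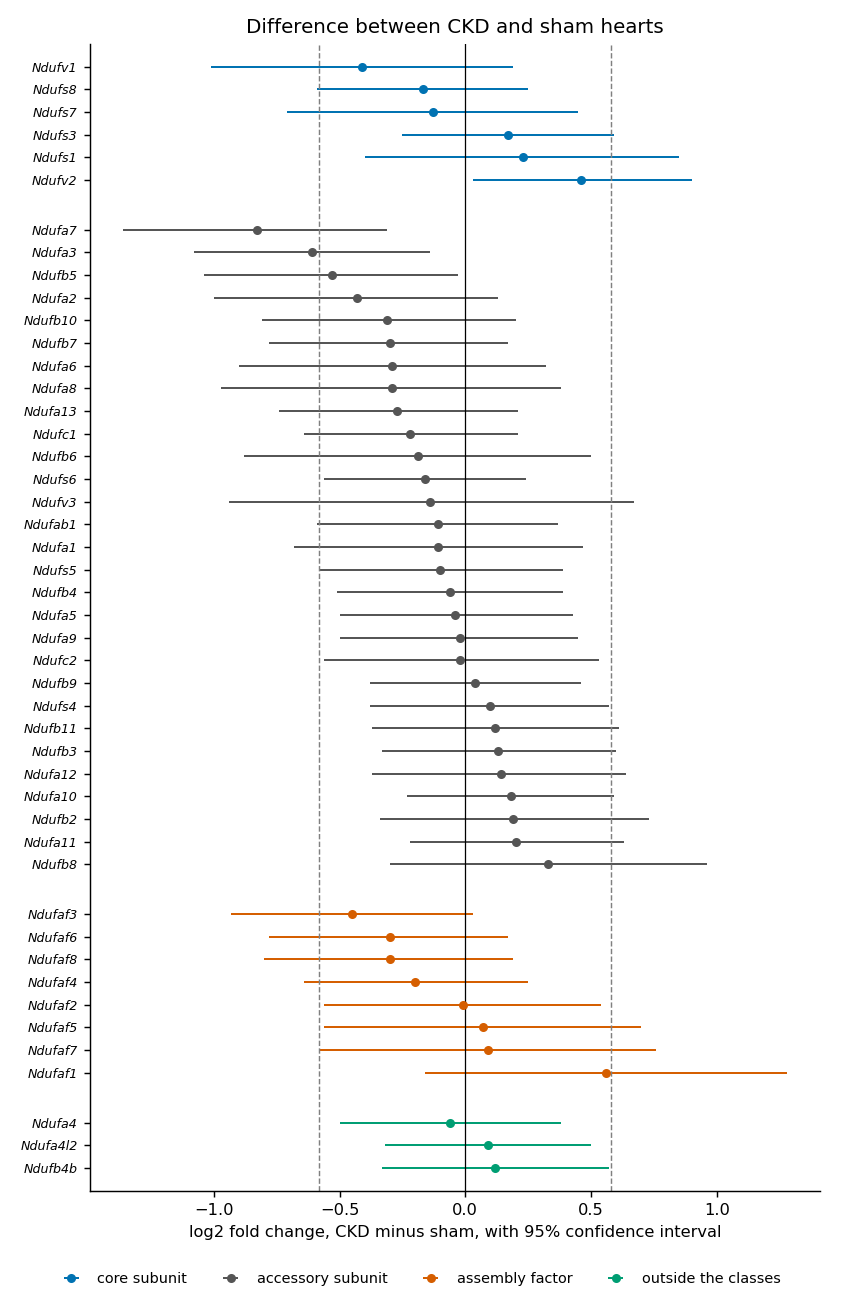
Log2 fold change, CKD minus sham, of each Nduf gene (points) with its 95% confidence interval from limma (lines), dashed lines marking a fold change of 1.5. Ndufa7 and Ndufa3 lie beyond the left dashed line, and the intervals of Ndufa7, Ndufa3, Ndufb5 and Ndufv2 leave out 0.

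A lack of a call was rarely a tight bound. The 95% confidence interval stayed within 1.5-fold in both directions for 12 of the 46 Nduf genes (26.1%), beside 4441 of all genes (22.8%). Without Ndufa4, Ndufa4l2 and Ndufb4b, which lie outside the complex I classes, the count was 9 of 43 (20.9%). Among the 12 was Ndufs6, a zinc-binding subunit of the N module whose shortage in mice is known to damage the heart. Its levels were 15.69, 15.59 and 15.53 in sham and 15.53, 15.35 and 15.44 in CKD hearts. The groups met at 15.53, and the difference of −0.16 had an interval from −0.56 to 0.24. For each of the 6 core subunits the interval reached past 1.5-fold on at least 1 side.

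Ndufa7, an accessory subunit of the N module, had the largest difference of the Nduf genes. Its log2 level was 9.88, 10.68 and 10.37 in the 3 sham hearts and 9.42, 9.50 and 9.51 in the 3 CKD hearts. Every CKD heart was below every sham heart, and the CKD hearts lay closer together (SD 0.05) than the sham hearts (SD 0.40). The difference was −0.83 on the log2 scale (standard error 0.23, 95% interval −1.36 to −0.31), or 1.78-fold lower, with an unadjusted p of 0.00564 and an adjusted p of 0.352 from limma. Ndufa7 passed the criterion under all 16 alternatives to the reported processing, with values between −1.06 and −0.65.

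Ndufa3, a small accessory subunit of the proximal membrane arm, lay near the top of the scale. Its log2 level was 18.63, 18.86 and 18.79 in sham and 18.47, 18.04 and 17.94 in CKD hearts. The groups did not overlap, although CKD 1 was only a little below sham 1. The difference was −0.61 (standard error 0.21, 95% interval −1.08 to −0.14), or 1.53-fold, with an unadjusted p of 0.0162 and an adjusted p of 0.448. It passed under 10 of 16 alternatives and ranged from −0.77 to −0.51. It fell short without sham 2 (−0.56), CKD 2 (−0.55) or CKD 3 (−0.51), after quantile normalization applied again (−0.51), and after cyclic loess (−0.55).

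Ndufb5, of the distal membrane arm, was 15.93, 16.45 and 16.19 in sham and 15.34, 15.85 and 15.78 in CKD hearts. The groups did not overlap, but the smallest gap, between sham 1 and CKD 2, was narrow. Its difference of −0.53 (standard error 0.22, unadjusted p = 0.0412, adjusted p = 0.516 from limma) was under the fold limit, and it passed only without sham 1 (−0.66), without CKD 2 (−0.63), and with both sham 1 and CKD 3 left out (−0.72). Ndufa3, Ndufa7 and Ndufb5 were chosen by the study for a heatmap of these same samples, so their direction is not independent evidence.

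Ndufv2 differed the other way. This core subunit of the N module carries an iron-sulphur cluster beside the flavin. Its log2 level was 16.98, 17.38 and 17.14 in sham and 17.50, 17.65 and 17.74 in CKD hearts, so that every CKD heart was above every sham heart. The difference was 0.46 (standard error 0.19, 95% interval 0.03 to 0.90), or 1.38-fold, with an unadjusted p of 0.0397 and an adjusted p of 0.513. It passed the fold limit under none of the 16 alternatives, which gave values from 0.31 to 0.57.

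**Figure D3:**
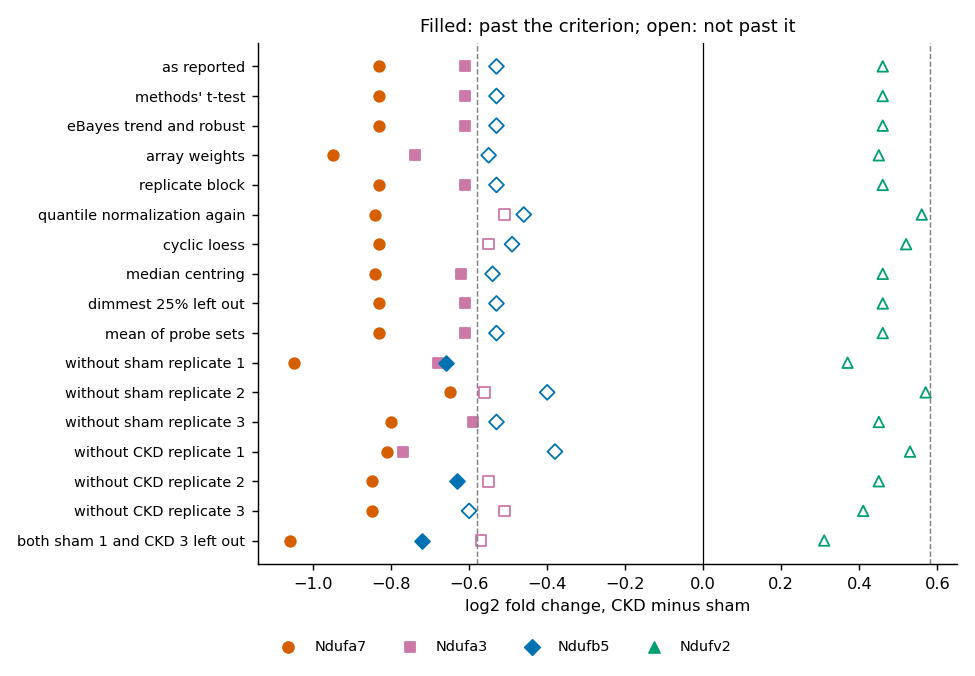
Log2 fold change, CKD minus sham (x axis), of Ndufa7, Ndufa3, Ndufb5 and Ndufv2 as reported and under each of 16 alternatives (y axis), filled where the criterion was passed. Ndufa7 is filled throughout, Ndufa3 under 10 of the alternatives, Ndufb5 under 3 and Ndufv2 under 0.

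The other core subunits gave values in both directions. Ndufv1, the flavoprotein that binds NADH, was 17.14, 17.04 and 17.22 in sham and 16.13, 16.95 and 17.10 in CKD hearts. CKD 1 alone was far below the rest, whereas CKD 3 lay within the sham range, and the difference of −0.41 had a standard error of 0.27 (adjusted p = 0.705). Ndufs1, the large subunit with several iron-sulphur clusters, was 16.75, 16.22 and 16.05 in sham and 16.07, 16.83 and 16.80 in CKD hearts (0.23). Here sham 1 sat with CKD 2 and CKD 3, and CKD 1 with sham 2 and sham 3. In the Q module, Ndufs7, which holds the cluster next to ubiquinone, had a difference of −0.13, Ndufs8, with a pair of clusters upstream of it, −0.17, and Ndufs3, an early building block of the module, 0.17. None of these was called.

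The accessory subunits other than Ndufa7 and Ndufa3 had no call. Ndufa2, with a thioredoxin-like fold in the N module, was 13.10, 13.78 and 13.70 in sham and 13.43, 12.90 and 12.95 in CKD hearts. CKD 2 and CKD 3 were below every sham heart, whereas CKD 1 was above sham 1, and the difference of −0.43 (standard error 0.25, adjusted p = 0.658) passed the criterion without sham 1 (−0.65), without CKD 1 (−0.60) and with array weights (−0.63). Ndufb10 (−0.31) and Ndufb7 (−0.30), which face the intermembrane space, and Ndufa13 (−0.27) and Ndufc1 (−0.22) of the proximal arm had negative values, and Ndufb8 (0.33) and Ndufa11 (0.20) positive ones, all with an adjusted p between 0.727 and 0.81. Ndufs4, whose loss in mice gives a model of Leigh syndrome, was 14.34, 14.79 and 14.79 in sham and 14.60, 14.95 and 14.66 in CKD hearts. The groups overlapped, with a difference of 0.10 (95% interval −0.38 to 0.57). Ndufab1, the mitochondrial acyl carrier protein, differed by −0.11 (95% interval −0.59 to 0.37).

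Assembly factors had no call in either direction, though 2 of the 8 had every CKD heart below every sham heart. Their roles below are known mainly from human cells. Ndufaf3, which works with Ndufaf4 on the early Q module, was 9.28, 9.29 and 9.36 in sham and 8.52, 9.17 and 8.90 in CKD hearts. The sham hearts agreed closely, all CKD hearts were below them, and the difference was −0.45 (standard error 0.21, adjusted p = 0.581). Without CKD 2 it reached −0.60 and passed the criterion. Ndufaf6 was 8.53, 8.55 and 8.57 in sham and 7.88, 8.41 and 8.45 in CKD hearts. Its difference of −0.30 (adjusted p = 0.727) came largely from CKD 1, the other CKD hearts being just below sham. Over all Nduf genes, 5 (10.9%) had every CKD heart below every sham heart, beside 6.71% of all genes, and 1 (2.17%) had every CKD heart above, beside 6.93%. Subunits of complexes II to IV and ATP synthase had similar shares, 11.4% below and 2.27% above.

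Ndufaf1, part of the complex that builds the membrane arm together with Ecsit and Acad9, was 9.38, 9.07 and 9.21 in sham and 10.54, 9.19 and 9.61 in CKD hearts. CKD 1 was the highest and CKD 2 lay within the sham range. The difference of 0.56 was the largest positive one of the Nduf genes but had a standard error of 0.32 (adjusted p = 0.658). Without CKD 2, Ndufaf1 passed the criterion at 0.85, the only call of a higher Nduf gene under the 16 alternatives. Its partners had −0.22 (Ecsit) and −0.19 (Acad9). Ndufaf8 (−0.30) stabilises Ndufaf5 (0.07), the enzyme that hydroxylates Ndufs7, and Ndufaf7 (0.09) is a methyltransferase. Ndufaf4 differed by −0.20 and Ndufaf2, a paralog of the N-module subunit Ndufa12, by −0.01. Of 13 measured assembly factors without the Nduf name, 0 were lower and 0 higher, with values from −0.50 to 0.39 and a median of −0.09, close to that of the Ndufaf genes.

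Spread between the CKD hearts was larger than between the sham hearts in all 8 assembly factors. Their median SD was 0.12 in sham and 0.35 in CKD hearts. Ndufaf7, for example, was 8.74, 8.61 and 8.69 in sham but 8.05, 9.02 and 9.24 in CKD hearts. Over the 46 Nduf genes the SD was larger in CKD for 34 (73.9%), with a median of 0.15 in sham and 0.29 in CKD, and over all genes for 59.9%, with medians of 0.22 and 0.27. No test was made of these spreads, which rest on 3 hearts each.

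CKD 1 was most often the outermost array among the assembly factors. It was the lowest of the 6 arrays for 5 of the 8 and the highest for 2, and the median deviation of the class from each gene's mean was −0.46 on CKD 1 and between −0.04 and 0.16 on the other 5 arrays. Over the 46 Nduf genes CKD 1 was lowest for 16 (34.8%, beside 21.8% of all genes) and sham 1 for 11 (23.9%, beside 18.4%), whereas sham 3 was lowest for 1. The core subunits were also furthest from their means on CKD 1, with a median deviation of −0.21, whereas the accessory subunits had −0.00 there. Of the 12 genes of heart muscle, a check of the tissue but not of the chamber, CKD 1 was lowest for 9. Their median deviation on it was only −0.07. None of the 12 was called, and their median log2 fold change was −0.03. They are a weak check, since Myl2, Tnnt2, Pln and Myoz2 had means between 19.89 and 19.91, at the top of the scale.

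Markers of some other cells moved between the arrays too. None of the 7 fibroblast and 8 endothelial genes was called. Their median deviations stayed between −0.17 and 0.12 and between −0.32 and 0.28, respectively. The 5 atrial muscle genes had median deviations of 0.58, −2.23 and −4.17 in sham and −0.12, 0.53 and 4.83 in CKD hearts, and the 3 measured Y-linked genes had 0.38, −2.20 and −2.11 in sham and 0.39, 0.01 and 3.69 in CKD hearts. Both lists were highest on CKD 3. Of the 5 atrial genes 3 (60%) were called higher, beside 3.13% of all genes, with adjusted p from 0.365 to 0.497 in limma. All 3 Y-linked genes (100%) were called higher, with adjusted p from 0.453 to 0.536 in limma, although the methods describe male mice only. Their mean levels were low, from 3.29 to 4.28, beside array medians of 4.95 to 4.98 over all genes. Of the 9 macrophage genes 3 (33.3%) were called lower, beside 3.19% of all genes, with adjusted p from 0.448 to 0.481 in limma, and 0 higher. Their median deviations were −0.57, 1.11 and 0.70 in sham and 0.22, −1.01 and −0.55 in CKD hearts. The median of the macrophage genes was thus low on sham 1, CKD 2 and CKD 3. All 7 adipocyte genes had positive differences with none called (median 0.64), and their median deviation was between −0.28 and 0.11 on 5 arrays and 0.99 on CKD 3. Alas2, the measured gene of the red blood cell list, was called higher (2.96, unadjusted p = 0.0155, adjusted p = 0.448). Summed on the linear scale, the levels ran from 3.27e+05 to 5.34e+05 in sham and 1.92e+05 to 6.29e+05 in CKD hearts for the atrial list, from 10.5 to 53.9 and 42.6 to 535 for the Y-linked list, and from 1.88e+04 to 5.54e+04 and 1.6e+04 to 2.95e+04 for the macrophage list. These sums overlapped between the groups for each of the 3 lists. Nppa, the brightest atrial gene, makes up most of the atrial sum and differed by −0.52. The other atrial genes had positive differences, from 3.16 for Myl7 to 5.14 for Bmp10. For Bmp10 and for Myl4 (4.30) every CKD heart was above every sham heart. The part of these lists in the Nduf values was not tested. In RNA of heart tissue, fewer cells of a type, less RNA per cell and a different part of the heart sampled cannot be told apart. With both sham 1 and CKD 3 left out, a setting chosen after seeing the data, Ndufa7 passed (−1.06), while Ndufa3 had −0.57 and did not. That setting does not remove the marker differences. On the arrays kept, the median deviations of the atrial, Y-linked and macrophage lists still did not overlap between the groups.

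**Figure D4:**
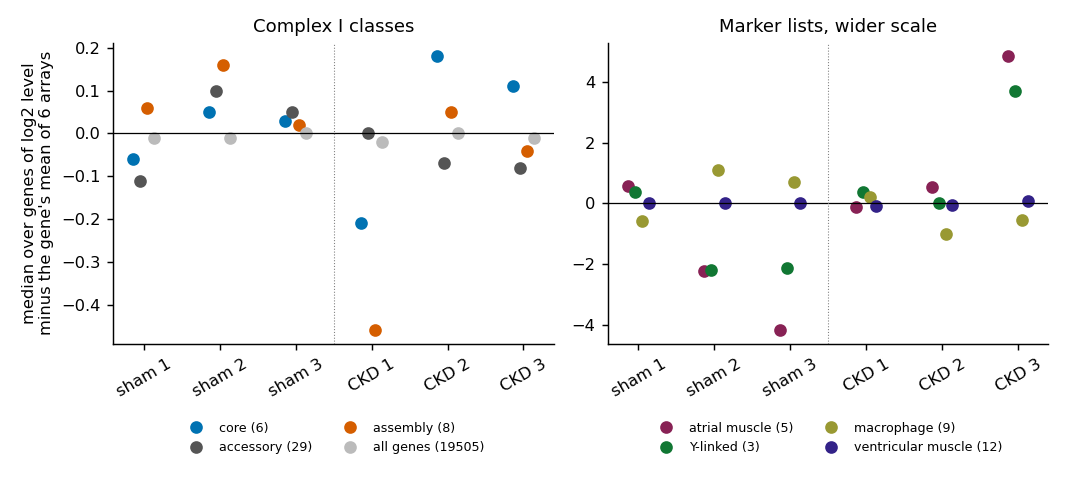
Median over the genes of a list of the log2 level minus each gene's mean of the 6 arrays (y axis), for each array (x axis), for the complex I classes and all genes (left) and for marker lists on a wider scale (right). The assembly factors are at −0.46 on CKD 1, and the atrial and Y-linked lists are at 4.83 and 3.69 on CKD 3. The list drawn as ventricular muscle holds the 12 heart muscle genes.

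Many Nduf genes lay high on the array's scale. The highest log2 level on any array was 20. Of the 46 Nduf genes 24 (52.2%) had a mean above 15, beside 1.94% of all genes, and 5 (10.9%) had a mean above 18, beside 0.359%. The 2 above 19 were Ndufa4 and Ndufb9, of 33 genes in all. Levels of different probe sets depend on their probes and are not ranked here against each other.

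Ndufa4 was 19.66, 19.61 and 19.50 in sham and 19.29, 19.73 and 19.57 in CKD hearts. Ndufb9, of the distal membrane arm, was 19.06, 19.18 and 18.98 in sham and 19.17, 18.93 and 19.24 in CKD hearts. Both groups overlapped for both genes, with differences of −0.06 (95% interval −0.50 to 0.38) and 0.04 (−0.38 to 0.46), and the sign of either changed when single arrays were left out. Near the top of the scale differences can be compressed. Of the 70 genes with a mean above 18, the median SD within groups was 0.13, whereas it was between 0.26 and 0.31 in each lower range of levels, and their median absolute log2 fold change was 0.10. Calls were not fewer there, at 8.57% of these genes in either direction, beside 3.8% of genes between 16 and 18 and 7.43% of those between 14 and 16. Ndufa3 was 1 of them. Ndufa4l2, a paralog known to be induced by low oxygen, had 6.97 ± 0.06 in sham and 7.06 ± 0.15 in CKD hearts (SD, n = 3 each).

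**Figure D5:**
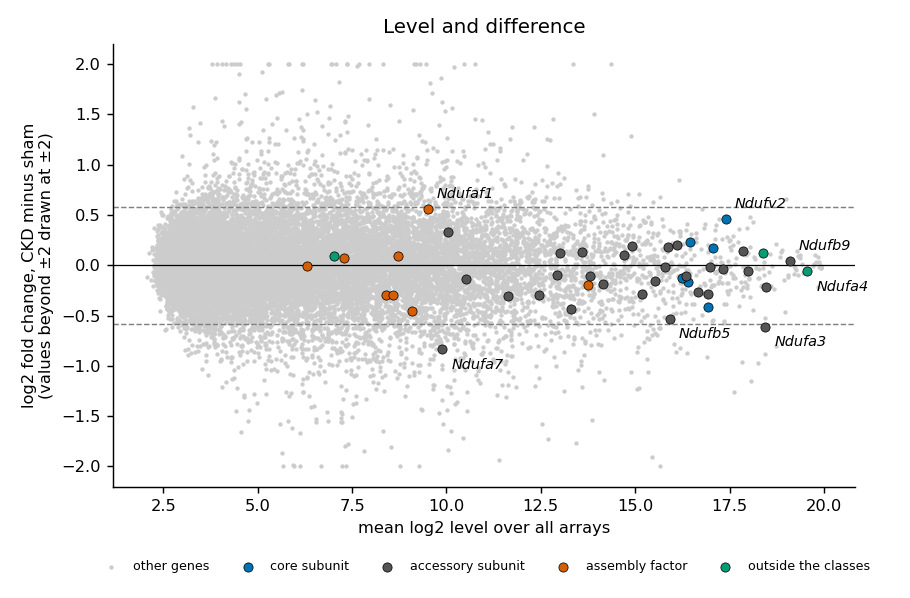
Mean log2 level over the 6 arrays (x axis) and log2 fold change, CKD minus sham (y axis), of every gene in grey and of the Nduf genes coloured by class, dashed lines marking a fold change of 1.5. Ndufa4 and Ndufb9 are above 19 and close to 0, and Ndufa7 and Ndufa3 lie below the lower dashed line.

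Over 44 measured subunits of complexes II to IV and ATP synthase, 1 was lower (Cox8a of complex IV, −0.72) and 1 was higher (Sdha of complex II, 1.17), with a median of −0.02. Each call is 2.27% of these genes, beside 3.19% of all genes lower and 3.13% higher. The median was 0.15 for complex II (4 genes), −0.00 for complex III (9), −0.06 for complex IV (13) and −0.01 for ATP synthase (18). For those 44 genes the 95% interval stayed within 1.5-fold for 54.5%, beside 26.1% of the Nduf genes and 20.9% of the 43 in the complex I classes.

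Regulators of mitochondrial genes had calls in both directions. Ppargc1a encodes PGC1α, the coactivator that drives mitochondrial biogenesis and complex I genes. Its log2 level was 15.51, 15.56 and 15.86 in sham and 14.72, 15.16 and 15.10 in CKD hearts, without overlap. The difference was −0.65 (standard error 0.21, adjusted p = 0.424 from limma), and it fell short of the fold limit without sham 3 (−0.54) or CKD 1 (−0.51). Nrf1, a transcription factor of nuclear genes for mitochondrial proteins, was 6.84, 6.59 and 6.14 in sham and 5.64, 5.89 and 6.13 in CKD hearts (−0.64, adjusted p = 0.466), and did not pass with the methods' t-test or without sham 1 (−0.48). Gabpb1, a subunit of the GABP factor that binds promoters of respiratory genes, was higher, at 6.11, 6.40 and 6.62 in sham and 7.12, 7.05 and 7.20 in CKD hearts (0.75, adjusted p = 0.346). Tfam, which packages and transcribes mitochondrial DNA, differed by 0.07. Over the 11 measured regulators the median was −0.03, and Esrra was not analysed here. Of the 11, 2 (18.2%) were lower and 1 (9.09%) was higher, beside 3.19% and 3.13% of all genes.

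Promoters from RefSeq (GRCm38.p6, 250 bases before to 50 after the start) were found for 41 of the 46 genes, 43 promoters in all. They were searched on both strands for GCGCATGC, the centre of the site of the factor encoded by Nrf1, which stood in 5 (11.6%, beside 2.71% of all 32851 promoters). The windows of 30 bases around these matches are shown because Nrf1 was itself called lower, with 1 match a promoter, the motif or its reverse complement, in capitals, each 5′ to 3′ on the gene's strand:
Ndufa8 (chr2:36049328-36049357, minus strand): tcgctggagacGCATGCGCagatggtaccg
Ndufaf5 (chr2:140170651-140170680, plus strand): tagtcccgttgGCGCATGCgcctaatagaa
Ndufaf4 (chr4:24897959-24897988, plus strand): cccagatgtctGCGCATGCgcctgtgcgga
Ndufa6 (chr15:82354356-82354385, minus strand): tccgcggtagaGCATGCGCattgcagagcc
Ndufa11 (chr17:56717691-56717720, plus strand): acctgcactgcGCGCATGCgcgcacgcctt
In Ndufaf5, Ndufaf4 and Ndufa11 the reverse complement overlaps the capitals and ends 2 bases after them, and the whole promoters held 2, 3 and 2 matches. A match is a description of these letters and does not show that the factor binds. None of the 5 genes was called, with log2 fold changes of −0.29 for Ndufa8, 0.07 for Ndufaf5, −0.20 for Ndufaf4, −0.29 for Ndufa6 and 0.20 for Ndufa11. The GABP motif CCGGAAG stood in 6 Nduf promoters (14%, beside 8.86% of all), among them those of Ndufaf1, Ndufs3 and Ndufs8, and AAGGTCA, the core of the site of the oestrogen-related receptors, in 3 (6.98%, beside 4.72%), and none of these genes was called either. None of the 3 motifs was found in the promoter window of Ndufa7, Ndufa3, Ndufb5 or Ndufv2.

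Ndufa7 shares its start region with Rps28, a ribosomal protein gene read in the opposite direction, whose annotated start lies 10 bases away. The bases up to the Ndufa7 start are shown with the 9 between both starts in capitals (GRCm38.p6, chr17:33824532-33824571, plus strand), because Ndufa7 had the largest difference of the Nduf genes:
Ndufa7: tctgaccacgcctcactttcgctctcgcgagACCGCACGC
Rps28 was 11.53, 13.19 and 13.15 in sham and 12.82, 11.45 and 11.16 in CKD hearts, a difference of −0.81 with a standard error of 0.53 (adjusted p = 0.701). Its groups overlapped, with sham 1 beside CKD 2 and CKD 3, unlike those of Ndufa7. Measured neighbours read in the opposite direction and starting within 1000 bases were found for 12 Nduf genes. Of these neighbours 1 was called, Vmac beside Ndufa11 (0.67, higher), where 3.13% of all genes were higher and 3.19% lower. The sign of the Nduf gene was shared by 5 neighbours. Mrpl47, with its start 308 bases from that of Ndufb5, had 0.25 where Ndufb5 had −0.53.

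The bases before the starts of Ndufa3 and Ndufv2, the accessory subunit called lower from the top of the scale and the core subunit above sham in every CKD heart, are shown for comparison, with no part marked (GRCm38.p6, chr7:3617123-3617372 on the plus strand and chr17:66101560-66101809 on the minus strand):
Ndufa3: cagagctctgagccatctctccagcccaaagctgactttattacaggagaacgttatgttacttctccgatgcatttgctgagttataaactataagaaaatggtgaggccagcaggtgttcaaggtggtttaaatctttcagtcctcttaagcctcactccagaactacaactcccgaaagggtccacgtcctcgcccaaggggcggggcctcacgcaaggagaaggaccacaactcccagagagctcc
Ndufv2: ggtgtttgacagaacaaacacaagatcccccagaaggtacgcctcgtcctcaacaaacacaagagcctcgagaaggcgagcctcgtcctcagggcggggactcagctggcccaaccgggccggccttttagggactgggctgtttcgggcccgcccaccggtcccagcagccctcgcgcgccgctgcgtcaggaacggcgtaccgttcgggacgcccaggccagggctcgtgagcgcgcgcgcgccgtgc
The share of G and C was 50.4% before Ndufa3 and 68% before Ndufv2. Over the Nduf promoters the median was 58%, beside 52.4% of all promoters.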

How the data were processed

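The authors deposited log2 expression levels of 22206 probe sets obtained with RMA, as the submitters' notes name it without a version. RMA corrects background, brings all arrays to a common distribution and summarises probes. No detection calls are given, and the number of arrays limits the precision. The platform annotation paired 19572 probe sets with 1 symbol and left 2634 unnamed. The brightest probe set by mean over all arrays was kept for 55 genes with several, none of them an Nduf gene. CKD was compared with sham over all 19505 genes in limma 3.58.1 (lmFit, then eBayes; R 4.3.3) without covariates, and the fit was tested on simulated data. The limits are those of the methods, which name no test for the arrays and no adjustment of p over genes. What is called the methods' t-test is the unpaired t-test they name for comparing groups in general, not for the arrays. With 3 mice a group the smallest p of an exact permutation test is 0.1, so none was used. Correlations between arrays were 0.981 to 0.995, and no array repeated another.

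Members and lists were chosen with earlier results of these data known. The genes named are 30 Nduf genes (those called, all core subunits and Ndufaf genes, the 10 accessory subunits of smallest p, the study's heatmap subunits, Ndufa4, Ndufa4l2, Ndufs4, Ndufs6, Ndufab1, and those above a mean of 19) and the regulators called or central to PGC1α. Ndufa6, Ndufa8, Ndufb4b, partner genes, promoter neighbours and the called genes of other complexes were added after their values were seen. Alternatives were cyclic loess, a repeated quantile normalization, median centring, array weights, the replicate number as a block, a robust eBayes with a trend, the methods' t-test, leaving out the dimmest 25% of genes, the mean of probe sets, each array left out, and, chosen after seeing the data, both sham 1 and CKD 3 left out. Figures were drawn with matplotlib 3.10.9.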

Additional observations from a re-analysis of the deposited data

How the results depend on the processing

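The count of 2 lower Nduf genes was 1 after quantile normalization applied again, 1 after cyclic loess and 0 at an adjusted p under 0.05, and ran from 1 to 5 with single arrays left out. It was 1 without sham 2 or CKD 3, leaving Ndufa7, and 5 without sham 1, where Ndufa2, Ndufa8 and Ndufb5 joined Ndufa7 and Ndufa3. The count of 0 higher was 1 without the fold limit (Ndufv2) and ran from 0 to 1 with single arrays left out, the 1 being Ndufaf1 without CKD 2. The same-numbered sham and CKD arrays did not deviate together (correlations of −0.18, −0.03 and −0.19). With 3 arrays a group, this cannot show whether the mice were paired. A figure legend of the study speaks of 3 pairs of mice, and the labels give only replicate numbers. With the replicate number as a block, 2 Nduf genes were lower and 0 higher. Medians ran from −0.12 to −0.04 for the Nduf genes, −0.05 to 0.09 for core subunits, −0.16 to −0.05 for accessory subunits and −0.18 to −0.08 for assembly factors. Signs changed for genes near 0. With single arrays left out, the log2 fold change ran from −0.16 to 0.06 for Ndufa4, −0.27 to 0.01 for Ndufab1, −0.23 to 0.14 for Ndufaf2, −0.12 to 0.33 for Ndufaf5, −0.14 to 0.45 for Ndufaf7, −0.02 to 0.13 for Ndufb9, −0.05 to 0.17 for Ndufs4, −0.41 to 0.02 for Ndufs7 and −0.05 to 0.13 for Tfam. Ndufa4 was 0.01 after cyclic loess. With both sham 1 and CKD 3 left out, Ndufaf2 was 0.19, Ndufaf5 −0.18, Ndufaf7 −0.11, Ndufb9 −0.03 and Ndufs4 −0.01. Gabpb1 then fell short at 0.57, and Nrf1 fell short there and with array weights, the block or without sham 2 or CKD 1. Over all genes, 623 were lower and 610 higher as reported, 318 and 307 with the methods' t-test, 1028 and 1023 with array weights, 957 and 697 without sham 1, and 946 and 1091 without CKD 1. The causes of these changes were not tested.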
